A study of Mus musculus with 6 samples.

Results

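The endothelin system of the aorta was described by its 7 genes, taken by name: the ligands *Edn1*, *Edn2* and *Edn3*, the receptors *Ednra* and *Ednrb*, and the converting enzymes *Ece1* and *Ece2*. All 7 were among the 18191 genes measured. The aortas of male mice gave 6 RNA-seq libraries, 3 from wild type (WT) animals and 3 from heterozygous *Npr1* knockouts (Npr1+/-), which were made with CRISPR-Cas9. *Npr1* encodes the receptor of atrial and B-type natriuretic peptide, and the knockout is not limited to a cell type of the vessel by any promoter or Cre named in the sources used here. Libraries are numbered 1, 2 and 3 in each genotype, and values below follow that order. No agent was given to either group in the sources used here, which state no age or strain, and the labels do not say whether each library came from 1 animal, so that the spread between libraries may in part be technical.

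Endothelin is a vasoactive peptide that endothelial cells cut out of a longer precursor, first by furin-type proteases and then by an endothelin converting enzyme at the cell surface or inside the cell. The endothelin A receptor lies on smooth muscle cells, where it couples to the G proteins that raise calcium and so contracts the vessel, while the endothelin B receptor of the endothelium releases nitric oxide and clears the peptide from the blood. Natriuretic peptides relax the vessel through cyclic GMP and so act on vascular tone in the opposite direction.

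The stretch of 63 bases that encodes the mature peptide of 21 residues is shown for the 3 ligands, since the similarity of the ligands bears on how reads are assigned to them. The stretches were found in the GENCODE M21 transcripts by the spacing of the cysteines and are written 5′ to 3′ on the coding strand, with the 4 cysteine codons in capitals. Each lies in exon 2 of its gene on the plus strand of GRCm38, at chr13:42303649-42303711 for *Edn1*, chr4:120161951-120162013 for *Edn2* and chr2:174761749-174761811 for *Edn3*.
Edn1: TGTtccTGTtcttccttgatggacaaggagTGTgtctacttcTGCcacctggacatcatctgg
Edn2: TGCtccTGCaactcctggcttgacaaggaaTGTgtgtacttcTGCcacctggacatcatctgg
Edn3: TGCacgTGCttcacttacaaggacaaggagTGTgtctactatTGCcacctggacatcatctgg
The stretch of *Edn1* was identical to that of *Edn2* at 53 of 63 bases and to that of *Edn3* at 50 of 63 bases, with the longest shared run at 27 bases. The ligands thus differ in sequence at each pairing, also in the stretch that encodes the mature peptide, and the counts of all 3 ligands came out as whole numbers in each library.

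The estimated counts summed to between 13510970 and 16664343 per library, and 3 counts, taken as the floor of detection, equal 0.18 to 0.222 CPM (estimated counts scaled to the library total). *Npr1* was at 112, 153 and 152 FPKM (fragments scaled to transcript length and library total) in the WT libraries, against 70.4, 110 and 133 FPKM in the Npr1+/- libraries, with overlap of the groups (log2 fold change -0.41, adjusted p = 0.999 by edgeR's quasi-likelihood test). It was lower in the Npr1+/- library of each number, and a fit with library number as a block gave -0.44 (adjusted p = 0.311 by edgeR's quasi-likelihood test). Without Npr1+/- 1 and without the block, the log2 fold change of *Npr1* was -0.22. The tissue label was met by 8 markers of smooth muscle, which summed to between 4956 and 14940 FPKM. The libraries WT 1 and Npr1+/- 1 stood apart from the other 4, with 7.93 and 6.52 times the summed FPKM of 5 erythroid genes, 5.35 and 3.70 times that of 6 adipocyte genes and 0.583 and 0.359 times that of the smooth muscle markers, each against the other libraries of its genotype. In Npr1+/- 1 the mean log2 CPM of 11 neuronal markers was 4.97, against values from -1.04 to -0.42 elsewhere. The summed FPKM of Schwann cell markers ran from 21.5 to 118, with its maximum in Npr1+/- 1, and the sums were 916 to 1548 for fibroblast, 154 to 397 for macrophage, 12.4 to 31.1 for cardiomyocyte, 21.5 to 52.2 for mast cell and 1.13 to 4.02 for epithelial markers. For some of the results that leaned on these libraries, the value without them is given beside the result.

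Compared per length of transcript, *Ece1* was the most abundant of the 7 genes in the aorta, at 4.44 times the level of *Edn1*. Its FPKM was 34.5 ± 6.25 (SD over 6 libraries), which exceeded that of 84.7% of the 15225 genes with a mean of at least 0.1 FPKM. *Edn1* followed at 7.77 ± 1.28 FPKM, *Ednrb* at 6.18 ± 2.83 FPKM, *Ece2* at 4.03 ± 0.896 FPKM and *Ednra* at 3.30 ± 0.650 FPKM. The ranges of neighbours in this order overlapped from *Edn1* down to *Ednra*, and *Edn1* was above *Ednrb* in 4 of 6 libraries, *Ednrb* above *Ece2* in 5 and *Ece2* above *Ednra* in 4. *Edn3*, at 0.168 ± 0.205 FPKM, and *Edn2*, at 0 FPKM in 5 of 6 libraries, were set apart at the low end. *Edn1*, with a range of 6.25 to 9.76 FPKM, lay above *Ece2*, at 3.27 to 5.28, and *Ednra*, at 2.36 to 3.94, without overlap, whereas *Ednrb*, at 3.50 to 10.25, overlapped with all 3. *Ece1* at the top and *Edn3* and *Edn2* at the bottom did not overlap with these 4 genes in any library.

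**Figure D1:**
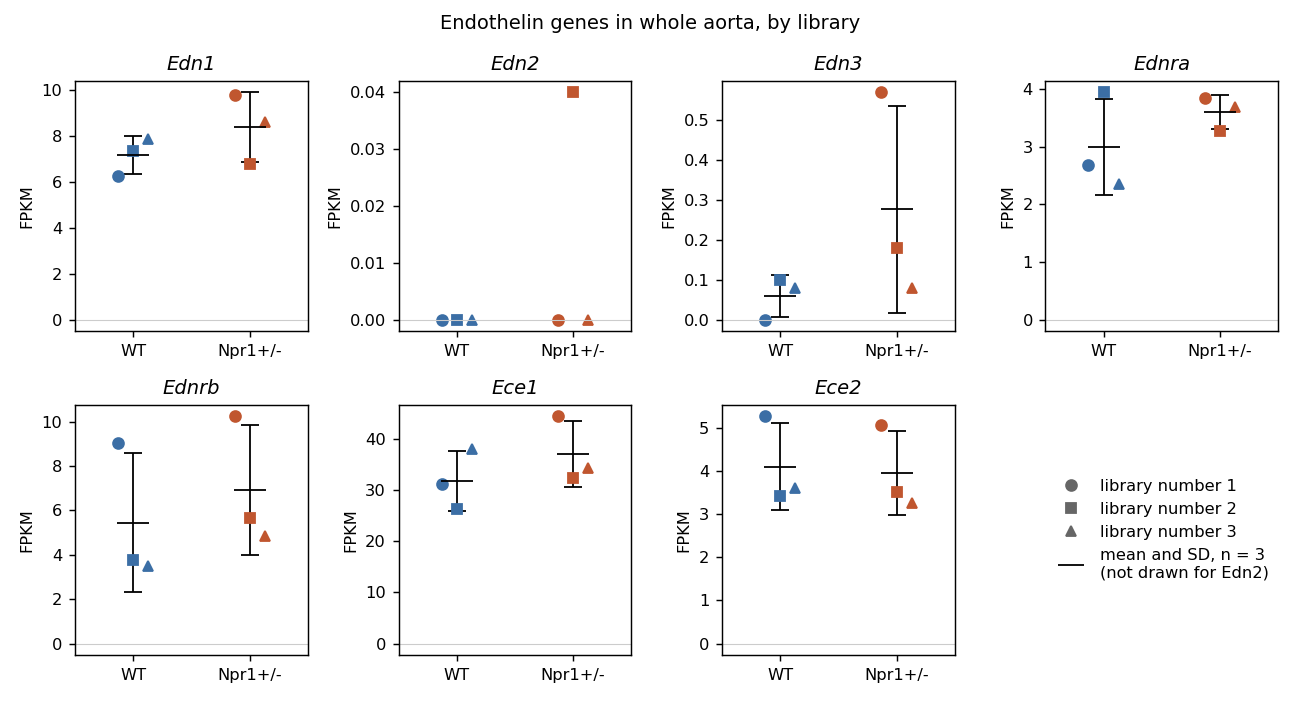
FPKM of the 7 endothelin genes in each library (points; the shape gives the library number), with mean and SD of 3 libraries per genotype. The genotypes overlap in each of the 7 panels, and the circles of *Ednrb*, at 9.05 and 10.25 FPKM, lie above the other 4 libraries.

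Among the ligands, *Edn1* supplied nearly all of the transcript. *Edn1* (NCBI gene 13614, chromosome 13 of GRCm38 from 42301476 to 42307990) encodes endothelin-1, the form made by vascular endothelium. Its FPKM was 6.25, 7.35 and 7.87 in the WT libraries, against 9.76, 6.77 and 8.61 in the Npr1+/- libraries. The highest value was that of Npr1+/- 1, and Npr1+/- 2 lay below WT 2 and 3, so that the groups overlapped. The means were 7.16 ± 0.827 (SD, n = 3) for WT and 8.38 ± 1.51 (SD, n = 3) for Npr1+/-, and the log2 fold change was 0.24 (standard error (SE) 0.20, adjusted p = 0.999 by edgeR's quasi-likelihood test). Without both libraries numbered 1, an alternative chosen after seeing the data, the log2 fold change of *Edn1* was -0.0053.

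*Edn3* and *Edn2* were at or near the limit of detection. *Edn3* (NCBI gene 13616, chromosome 2 from 174760619 to 174784042), whose peptide acts mainly through the endothelin B receptor in neural crest cells, had 0, 5 and 4 counts in the WT libraries, against 26, 9 and 4 counts in the Npr1+/- libraries. Its counts were too low for the filter, and most of its counts came from Npr1+/- 1, the library with the neuronal transcripts. In CPM normalized between libraries the means were 0.892 ± 0.847 (SD, n = 3) for Npr1+/- and 0.185 ± 0.163 (SD, n = 3) for WT. The difference was smaller than the SD of Npr1+/- but larger than that of WT (exact two-sided permutation test, p = 0.2, where 3 libraries against 3 cannot go below 0.1). Without Npr1+/- 1 the Npr1+/- mean was 0.412 CPM (exact two-sided permutation test, p = 0.4). *Edn2* (NCBI gene 13615, chromosome 4 from 120161206 to 120167360) had 1 count in Npr1+/- 2 and 0 counts in the other 5 libraries. A count of 0 allows up to 3 counts, or 0.222 CPM in the shallowest library, by counting error alone, and no fold is given for *Edn2*.

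*Edn1* accounted for 100%, 98.7% and 99.0% of the summed FPKM of the ligands of the WT libraries, against 94.5%, 96.9% and 99.1% in the Npr1+/- libraries. The lowest share was in Npr1+/- 1, where *Edn3* had its 26 counts. The difference between the genotype means was -2.41 percentage points (exact two-sided permutation test, p = 0.3, with 0.1 as the smallest p possible). It was -1.25 percentage points without Npr1+/- 1 and -3.55 without Npr1+/- 3.

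*Edn1* was also set against the cells known to make it, since in bulk tissue fewer cells of a type and less RNA per cell cannot be told apart. Of 10 endothelial markers, 4 (*Pecam1*, *Tie1*, *Vwf* and *Egfl7*) had their lowest Npr1+/- value above their highest WT value, which held for 3.9% of all tested genes, while *Erg* was lower in the Npr1+/- library of each number, at 45.3, 57.6 and 58.4 CPM in the WT libraries, against 35.4, 52.6 and 41.2 CPM. By edgeR 0 of the 10 were called, and their summed level was 262, 185 and 282 FPKM in the WT libraries, against 440.3, 328 and 321 FPKM in the Npr1+/- libraries. The mean log2 CPM of the list was higher in Npr1+/- by 0.51, without overlap of the groups (exact two-sided permutation test, p = 0.1, the smallest possible). This difference was 0.29 without Npr1+/- 1 and 0.41 without both libraries numbered 1. Relative to this mean, the log2 level of *Edn1* was -2.35, -1.47 and -1.89 in the WT libraries, against -2.36, -2.28 and -1.92 in the Npr1+/- libraries. It was lower in the Npr1+/- library of each number, but the numbers 1 and 3 were nearly level and number 2 differed most. In the mean it was lower by 0.29, with overlap of the groups (exact two-sided permutation test, p = 0.4). The difference depended on single WT libraries, at -0.07 without WT 2 and -0.51 without WT 1. The part of the endothelial transcripts in the values of *Edn1* was not tested.

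The receptors differed in how they varied. *Ednra* (NCBI gene 13617, chromosome 8 from 77663029 to 77724452) encodes the endothelin A receptor, the contractile receptor of smooth muscle. Its FPKM was 2.68, 3.94 and 2.36 in the WT libraries, against 3.84, 3.28 and 3.68 in the Npr1+/- libraries. WT 2 was the highest of all 6 libraries, while WT 1 and 3 were the lowest. The means were 2.99 ± 0.835 (SD, n = 3) for WT and 3.60 ± 0.288 (SD, n = 3) for Npr1+/-, with a log2 fold change of 0.28 (SE 0.22, adjusted p = 0.999 by edgeR's quasi-likelihood test). Without WT 2 the log2 fold change was 0.51, with an adjusted p of 1.00 from the same edgeR test.

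Relative to the mean of the 8 smooth muscle markers, the log2 level of *Ednra* was -6.73, -7.04 and -7.70 in the WT libraries, against -5.65, -7.20 and -7.03 in the Npr1+/- libraries. The value of Npr1+/- 1 stood above the other 5, in the library where the smooth muscle markers were lowest. The mean difference of 0.53 was near the SD of the WT libraries, at 0.49, and below that of the Npr1+/- libraries, at 0.85 (exact two-sided permutation test, p = 0.5). Without Npr1+/- 1 the difference was 0.04.

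*Ednrb* (NCBI gene 13618, chromosome 14 from 103814615 to 103844508) encodes the endothelin B receptor of endothelium, which is also expressed in glia and other descendants of the neural crest. Its FPKM was 9.05, 3.76 and 3.50 in the WT libraries, against 10.25, 5.65 and 4.85 in the Npr1+/- libraries. Both libraries numbered 1 were high, and in normalized CPM they were 2.41 times the mean of the other WT libraries and 2.15 times the mean of the other Npr1+/- libraries. Of all 13938 tested genes, 28.6% were highest in number 1 in both genotypes. The groups overlapped, since WT 1 exceeded Npr1+/- 2 and 3, and the log2 fold change was 0.39 (SE 0.47, adjusted p = 0.999 by edgeR's quasi-likelihood test).

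Within each library number *Ednrb* was higher in the Npr1+/- library, at 1.24, 1.49 and 1.28 times the WT library with the same number. The labels do not say that libraries of the same number belong together, and correlations across genes set apart only number 1. Of all tested genes, 17.5% were higher in Npr1+/- within all 3 numbers, and *Ednrb* was the only 1 of the 5 tested members that was, while 0 of the 5 were lower within all 3 numbers, against 16.9% of all genes. Fitted with library number as a block term, *Ednrb* had a log2 fold change of 0.41 with a 95% interval of 0.11 to 0.71 (unadjusted p = 0.0134 and adjusted p = 0.264 by edgeR's quasi-likelihood test). An unadjusted p under 0.05 was reached by 12.4% of all tested genes in this fit, with a positive log2 fold change by 7.36%, and by 1 of the 5 tested members. Without the block, the value depended on single libraries of number 1, with a log2 fold change of -0.10 without Npr1+/- 1 and of 0.94 without WT 1. Without both libraries numbered 1, chosen after seeing the data, it was 0.47 (unadjusted p = 0.0182 and adjusted p = 0.350 by edgeR's quasi-likelihood test).

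The balance of the receptors followed *Ednrb*. *Ednrb* made up 77.2%, 48.8% and 59.7% of the summed receptor FPKM in the WT libraries, against 72.8%, 63.3% and 56.9% in the Npr1+/- libraries. In log2 units the ratio of *Ednra* to *Ednrb* was -0.75 ± 0.93 (SD, n = 3) for WT and -0.87 ± 0.51 (SD, n = 3) for Npr1+/- (exact two-sided permutation test, p = 0.9). The largest share of *Ednrb* was in the libraries numbered 1 of both genotypes, and the genotypes did not separate.

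Of the converting enzymes, *Ece1* (NCBI gene 230857, chromosome 4 from 137862237 to 137965229), the enzyme that cuts big endothelin-1 in endothelium, carried most of the transcript. Its FPKM was 31.2, 26.4 and 38.1 in the WT libraries, against 44.5, 32.4 and 34.4 in the Npr1+/- libraries. The highest library was Npr1+/- 1 and the next was WT 3, so that the groups overlapped. The means were 31.9 ± 5.90 (SD, n = 3) for WT and 37.1 ± 6.50 (SD, n = 3) for Npr1+/-, with a log2 fold change of 0.23 (SE 0.22, adjusted p = 0.999 by edgeR's quasi-likelihood test). Without Npr1+/- 1 the log2 fold change of *Ece1* was 0.04.

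*Ece2* (NCBI gene 107522, chromosome 16 from 20629851 to 20645915) encodes a related enzyme that works at acidic pH inside the cell and is known mainly from brain. Its FPKM was 5.28, 3.43 and 3.62 in the WT libraries, against 5.07, 3.52 and 3.27 in the Npr1+/- libraries, high in both libraries numbered 1. Its normalized CPM did not share that pattern, at 8.97, 9.75 and 8.401 in the WT libraries, against 11.5, 8.92 and 7.31 in the Npr1+/- libraries. The transcript length implied by count, FPKM and library size ranged from 1724 to 2906 bases between libraries for *Ece2*, whereas for *Edn1*, *Ednra* and *Ece1* it stayed within 2135 to 2143, 3662 to 3674 and 4785 to 4797 bases. For *Ednrb* it ranged from 3545 to 3795 bases, so that its FPKM also varied somewhat with the implied length. The read-through gene that joins *Ece2* to its neighbour *Eef1akmt4* has no row of its own in the table, so that the share of its reads in *Ece2* cannot be told apart. The log2 fold change of *Ece2* was 0.03 (SE 0.22, adjusted p = 0.999 by edgeR's quasi-likelihood test), and *Ece1* exceeded *Ece2* by 5.91-fold to 10.5-fold in FPKM in the 6 libraries.

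Of the 7 genes, 5 passed the filter on low counts, and edgeR's quasi-likelihood test called 0 of these, as it did 0% of the 13938 tested genes. A call needed an adjusted p below 0.05 together with a log2 fold change of 0.5 or more in either direction. On simulated counts this test called 6 of 100 genes changed 2-fold, so that the lack of calls does not show equal levels. At an unadjusted p under 0.05 there were 0 of 5 members without the block, against 2.96% of all tested genes and 1.88% with a positive log2 fold change. DESeq2 called 0 of 7 members and 0.0832% of all genes, and with the replicate block it called 0 of the 5 members with an adjusted p and 1.98% of all genes. Log2 fold changes were above 0 for 5 of 5, as for 51.6% of all tested genes, and 0 of 5 had groups without overlap, against 3.9% of all tested genes with every Npr1+/- value above WT and 3.58% with every value below. The 95% intervals of the fold were 0.853 to 1.63 for *Edn1*, 0.846 to 1.75 for *Ednra*, 0.605 to 2.82 for *Ednrb*, 0.813 to 1.69 for *Ece1* and 0.713 to 1.46 for *Ece2*.

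**Figure D2:**
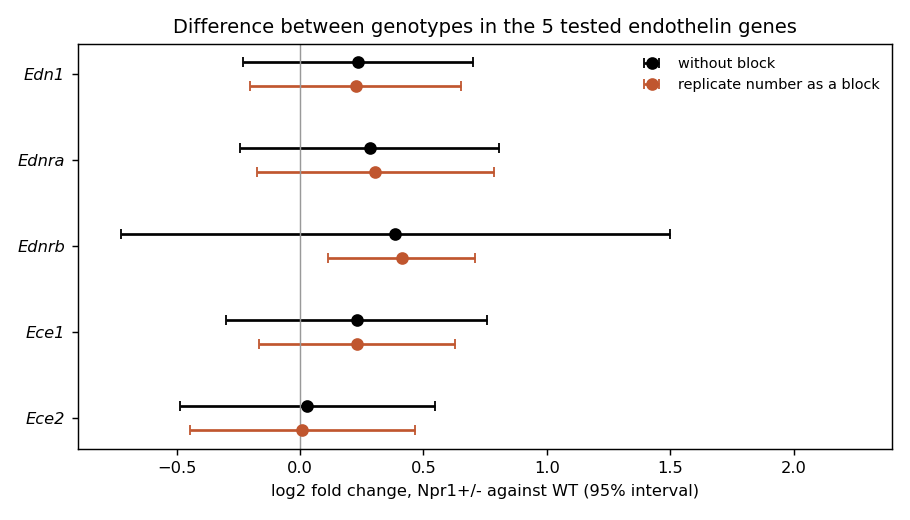
Log2 fold change of Npr1+/- against WT for the 5 tested genes with 95% intervals, without (black) and with (orange) the replicate block. The interval of *Ednrb* is 0.11 to 0.71 with the block and includes 0 without it, and those of the other 4 genes include 0 in both fits.

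The 3 genes nearest to each member in pattern were found by the root mean square difference of log2 CPM deviations over the 6 libraries, as a description of likeness among 13938 genes and with no test. The nearest to *Ednrb* were *Hint3*, *Sorcs2* and *Ntrk2*, at 0.063, 0.068 and 0.075 log2 units, where the median gene was at 0.65. *Ntrk2*, the receptor of brain-derived neurotrophic factor, had 178, 73.0 and 82.3 CPM in the WT libraries, against 233, 112 and 90.8 CPM in the Npr1+/- libraries, with the libraries numbered 1 highest. The mean log2 CPM of 8 Schwann cell markers, glia that are known to express *Ednrb*, was 2.55, 2.31 and 2.04 in the WT libraries, against 4.41, 2.34 and 2.84 in the Npr1+/- libraries, with number 1 highest in each genotype. By mean log2 CPM, number 1 was also highest in each genotype for the erythroid, adipocyte, endothelial, macrophage, cardiomyocyte and mast cell lists. It was lowest in each genotype for smooth muscle, while the fibroblast, neuronal and epithelial lists had neither pattern. The part of these transcripts in the values of *Ednrb* was not tested.

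The other members had flatter patterns, with SDs of log2 CPM between 0.21 and 0.29 against 0.66 for *Ednrb*. The nearest to *Edn1* were *Atp23*, *Dgki* and the clock gene *Per1*, at 0.061, 0.076 and 0.080 log2 units. Among the members, *Ece1* was closest to *Edn1* at 0.17, and 1.97% of the tested genes were closer to *Edn1*. The nearest to *Ece1* were *Ptpn14*, *Fancg* and *Fbxl4* at 0.074, 0.084 and 0.095, those to *Ednra* were *Ppl*, *Tmem86b* and *Phldb3* at 0.095, 0.099 and 0.10, and those to *Ece2* were *Dis3l2*, *Casp6* and *Dipk1a* at 0.043, 0.062 and 0.068.

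**Figure D3:**
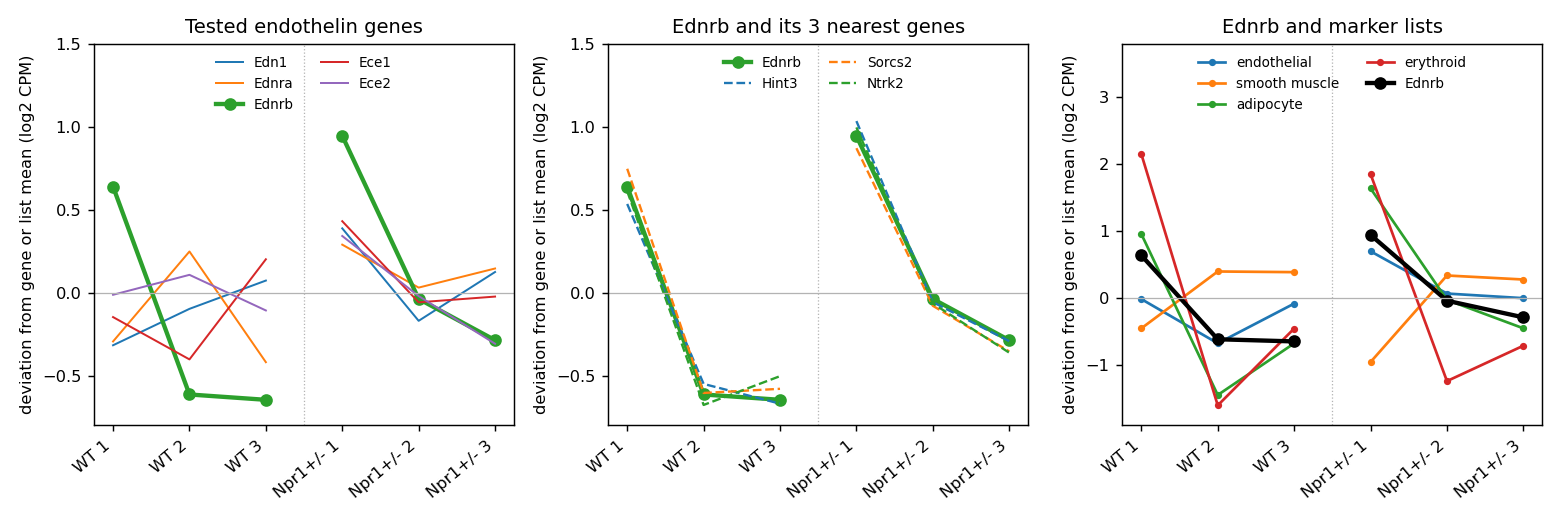
Deviation of log2 CPM from the mean over 6 libraries for the 5 tested members (left), for *Ednrb* and its 3 nearest genes (middle) and for *Ednrb* and the mean of 4 marker lists (right), with lines only joining the points of 1 genotype. *Ednrb*, the adipocyte list and the erythroid list are highest in the libraries numbered 1 of both genotypes, where the smooth muscle list is lowest. The endothelial list is also highest in number 1 within each genotype, though WT 1 lies below Npr1+/- 2 and 3.

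The genes that act before and after the receptor were compared by 5 lists of 56 genes in all, of which 50 were tested. edgeR's quasi-likelihood test called 0 of the 50 with or without the replicate block, 26 had a positive log2 fold change and 24 a negative one, and the median was 0.01 against 0.0076 for all tested genes. DESeq2 called 0 of the listed genes, against 0.0832% of all genes. With the replicate block, an alternative chosen after seeing the data, it called 1, *Ret*, against 1.98% of all genes. At an unadjusted p under 0.05 by edgeR there were 4 of 50 without the block, where 2.96% of all tested genes were found, and 12 of 50 with it, where 12.4% were. Every Npr1+/- value was above every WT value for 4 of 50, against 3.9% of all tested genes. Every Npr1+/- value was below every WT value for 1 of 50, against 3.58%. *Plcb2*, among those above, passed the filter on low counts only through the Npr1+/- libraries. Each gene named below had an adjusted p of 0.999 in edgeR's quasi-likelihood test when the block was left out.

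Among proteases of the endothelin precursor and peptide, 5 of 8 tested genes had a positive log2 fold change, with a median of 0.05. *Furin*, which makes big endothelin, was nearly level between the genotypes, with a log2 fold change of 0.02. *Mmp2*, a gelatinase that also cuts big endothelin-1, had 124, 117 and 72.9 CPM in the WT libraries, against 70.1, 79.3 and 69.7 CPM in the Npr1+/- libraries. WT 1 and 2 were high and WT 3 lay among the Npr1+/- libraries, and the log2 fold change was -0.52 (unadjusted p = 0.0495 by edgeR's quasi-likelihood test). The log2 fold change of *Mmp2* was -0.51 without Npr1+/- 1. Without both libraries numbered 1 it was -0.35 (unadjusted p = 0.152 by edgeR's quasi-likelihood test).

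Of the 16 genes of the Gq and calcium arm, 6 had a positive and 10 a negative log2 fold change, with a median of -0.04. *Plcb2*, a phospholipase C of blood cells, had 8, 6 and 2 counts in the WT libraries, against 23, 19 and 10 counts in the Npr1+/- libraries. It passed the minimum count of 10 only through the Npr1+/- libraries, so that its unadjusted p under 0.05 is no support for a difference. *Plcb1*, its widely expressed relative, had a log2 fold change of -0.35. Of the 9 kinases, arrestins and RGS proteins that end receptor signalling, 6 were positive and 3 negative, with a median of 0.08.

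Of the 10 factors known to act on the *Edn1* gene, 4 were positive and 6 negative, with a median of -0.07. *Klf2*, a flow-induced factor of endothelium that represses *Edn1*, had 112, 116 and 165.0 CPM in the WT libraries, against 171, 222 and 165.1 CPM in the Npr1+/- libraries, so that the groups did not overlap but WT 3 and Npr1+/- 3 were nearly level (log2 fold change 0.51, unadjusted p = 0.0515 by edgeR's quasi-likelihood test). *Gata2*, which activates *Edn1* in endothelial cells, had 17.9, 9.26 and 17.98 CPM in the WT libraries, against 36.1, 17.97 and 19.2 CPM in the Npr1+/- libraries, with Npr1+/- 1 highest (log2 fold change 0.70, unadjusted p = 0.1002 by edgeR's quasi-likelihood test). Without Npr1+/- 1 the log2 fold change of *Gata2* was 0.29. Both are also endothelial genes, and the endothelial markers had the values given above for *Edn1*.

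The developmental partners of endothelin signalling gave the lowest unadjusted p of all lists, with 5 of 7 tested genes positive and a median of 0.26. *Ret*, a receptor kinase that acts beside *Ednrb* in enteric neurons, had 4.45, 4.32 and 3.09 CPM in the WT libraries, against 34.8, 7.78 and 9.34 CPM in the Npr1+/- libraries. All Npr1+/- values exceeded all WT values, with the largest value in the library that held neuronal transcripts (log2 fold change 2.13, unadjusted p = 0.0111 by edgeR's quasi-likelihood test). Without Npr1+/- 1 the log2 fold change of *Ret* was 1.097, and without both libraries numbered 1 it was 1.21. *Sox10*, the glial factor that drives *Ednrb* in neural crest, had 13.4 CPM in Npr1+/- 1 and between 1.73 and 3.52 CPM in the other 5 libraries, with overlap of the groups. *Zeb2*, another factor of neural crest, was above all WT libraries in all 3 Npr1+/- libraries, with a log2 fold change of 0.26 (unadjusted p = 0.0924 by edgeR's quasi-likelihood test), or of 0.14 without Npr1+/- 1. *Dlx5*, a target of *Edn1* and *Ednra* signalling in the embryonic jaw, was at 2.77, 3.64 and 1.85 CPM in the WT libraries, against 1.57, 1.202 and 1.40 CPM in the Npr1+/- libraries, without overlap (log2 fold change -0.98, unadjusted p = 0.0273 by edgeR's quasi-likelihood test).

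**Figure D4:**
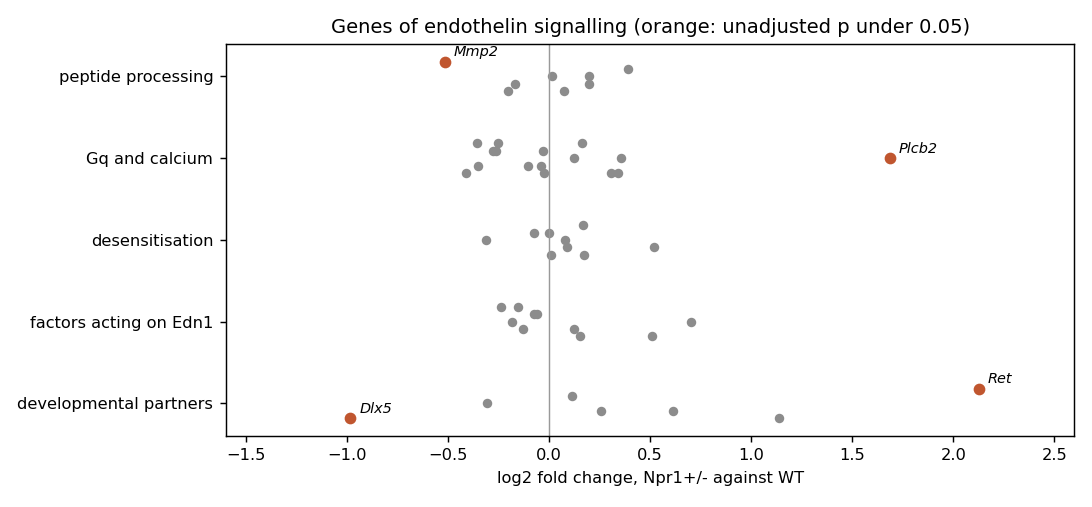
Log2 fold change of Npr1+/- against WT for the 50 tested genes of endothelin signalling by list, with genes at an unadjusted p under 0.05 from edgeR in orange. The 4 orange genes, *Ret*, *Plcb2*, *Dlx5* and *Mmp2*, lie on both sides of 0, *Plcb2* passed the low-count filter only through the Npr1+/- libraries, and 0 of the 50 were called after adjustment.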

How the data were processed

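Reads were cleaned by the authors in SOAPnuke and matched by Bowtie2 to coding gene sequences, from which RSEM estimated expression. The submitters' processing notes name mm10, and the gene set release is not given in the sources used here. The deposited estimated counts are not normalized, and the deposited FPKM values are scaled by transcript length and library size. The authors' genotype means were not used. Identifiers of 18070 of 18191 genes were paired with symbols and coordinates of RefSeq on GRCm38, the same build as mm10.

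Estimated counts were rounded. Npr1+/- and WT were compared in R 4.3.3 with edgeR 4.0.16 (TMM, minimum count 10, quasi-likelihood test, Benjamini-Hochberg adjustment over 13938 genes). Normalized CPM used the same scaling, and log2 CPM a prior count of 2. The fits were tested on simulated counts. There edgeR recovered 6 of 100 genes changed 2-fold and 70 of 100 changed 4-fold, with 7 false calls. With the block it recovered 2 and 68, with 6 false calls. The simulated libraries had no difference by number, so that these counts do not show how the block performs on these data. DESeq2 recovered 37 and 89, with 67 false calls. Single values were compared by exact permutation tests, with 0.5 added to CPM before the logarithm.

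The members and lists were chosen with earlier results of these data known. Named are the 7 members, *Npr1*, the 10 tested list genes with the smallest unadjusted p, the 3 genes nearest to each tested member, and markers where their list is given; *Furin* and *Ntrk2* values, *Mme*, *Rgs2*, *Cacna1c* and *Plcb4* were chosen later, from their values. *Ctsg*, a gene of the protease list, was not analysed here, and 1 of the 6 signalling lists, with 1 of the 10 genes, is not reported here. Lists of fibroblast, Schwann cell, macrophage, cardiomyocyte, mast cell and epithelial markers were also summed.

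Same-numbered libraries deviated together from their genotype means, with correlations across genes of 0.64, 0.39 and 0.24 for the numbers 1, 2 and 3, and the other 6 pairs ranged from -0.58 to 0.45. WT 2 with Npr1+/- 3 was at 0.37 and WT 3 with Npr1+/- 2 at 0.45. The data thus set number 1 apart but do not show how the libraries numbered 2 and 3 pair. The block took the numbers as pairs, which the labels do not state, and results within numbers carry this limit.

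Alternatives were DESeq2 1.42.0, its size factors, no filter, limma 3.58.1 on log2(FPKM + 0.1) or log2(FPKM + 1), the replicate block, an adjusted p under 0.1 with no fold threshold, and leaving out each library. DESeq2 with the block and leaving out both libraries numbered 1, and the values of endothelial markers and signalling genes without Npr1+/- 1, were added after seeing the data.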

Additional observations from a re-analysis of the deposited data

How the results depend on the processing

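No member was called under any of the 15 alternatives. The number of genes called among all tested genes was 0 with edgeR and 15 with DESeq2. With alternatives chosen after seeing the data, it was 1 without both libraries numbered 1 and 268 with DESeq2 and the replicate block. These 268, or 1.98% of all genes, included 1 gene of the signalling lists, *Ret*. With the replicate block in edgeR these counts stayed at 0, and the log2 fold changes of *Edn1*, *Ednra*, *Ednrb*, *Ece1* and *Ece2* were 0.23, 0.31, 0.41, 0.23 and 0.01. The direction of *Edn1* reversed without both libraries numbered 1 (-0.0053), and that of *Ednrb* without Npr1+/- 1 (-0.10, within a range of -0.10 to 0.94 over the libraries left out). *Ece2*, near 0 throughout, reversed on the FPKM scale (-0.0546 with limma on log2(FPKM + 0.1) and -0.0446 on log2(FPKM + 1)), without both libraries numbered 1 (-0.16) and within a range of -0.17 to 0.17 over the libraries left out. *Ednra* and *Ece1* kept their direction, between 0.14 and 0.51 and between 0.03 and 0.39 over all alternatives. The mean difference of the log2 ratio of *Ednra* to *Ednrb* was -0.11 and ranged from -0.62 to 0.30 with each library left out, with positive values without WT 2 (0.30) and without Npr1+/- 1 (0.16). The other 3 differences kept their sign with each library left out, at -3.55 to -1.25 percentage points for the *Edn1* share, -0.51 to -0.07 for *Edn1* against endothelial markers and 0.04 to 0.82 for *Ednra* against smooth muscle markers. Pairing by number gives the same 4 differences by construction. The causes were not tested. Depth limits *Edn2* and *Edn3*, which lie at or near the floor. Without the filter on low counts the log2 fold change of *Edn3* was 2.17 (adjusted p = 0.992 by edgeR's quasi-likelihood test).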

Other observations

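The pattern of *Ednrb*, highest in the libraries numbered 1 of both genotypes, was shared by 14 of the 50 tested genes of the signalling lists, and by 28.6% of all tested genes. *Mme* and *Rgs2* are given as examples, chosen after their values were seen. *Mme*, which encodes neprilysin, a protease that breaks down both endothelin and natriuretic peptides, had 79.4, 24.0 and 25.6 CPM in the WT libraries, against 104.6, 34.5 and 30.1 CPM in the Npr1+/- libraries. It was higher in the Npr1+/- library of each number (log2 fold change 0.38 with the replicate block, unadjusted p = 0.0102 and adjusted p = 0.244 by edgeR's quasi-likelihood test). *Rgs2*, which ends Gq signalling and is activated by cyclic GMP-dependent kinase, had 137, 30.7 and 29.8 CPM in the WT libraries, against 207, 46.2 and 29.2 CPM in the Npr1+/- libraries, with the numbers 3 level.

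The opposite pattern, lowest in the libraries numbered 1 of both genotypes, was found in 20 of the 50 genes and in 29.8% of all tested genes. In the Gq and calcium list 8 of 16 genes had it and 5 of 16 were highest in these libraries. *Cacna1c* and *Plcb4* are examples, also chosen after their values were seen. *Cacna1c*, the pore of the L-type calcium channel of smooth muscle, had 76.6, 143 and 152 CPM in the WT libraries, against 53.9, 96.8 and 128 CPM in the Npr1+/- libraries. It was lower in the Npr1+/- library of each number (log2 fold change -0.44 with the replicate block, unadjusted p = 0.0069 and adjusted p = 0.213 by edgeR's quasi-likelihood test). *Plcb4*, a phospholipase C coupled to Gq, had 227, 334 and 380.3 CPM in the WT libraries, against 151, 293 and 292 CPM in the Npr1+/- libraries, with a log2 fold change of -0.39 with the block (unadjusted p = 0.0275 and adjusted p = 0.331 by edgeR's quasi-likelihood test). With the block, 12.4% of all tested genes had an unadjusted p under 0.05.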
